A study of Mus musculus with 12 samples.

Results

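The G2 and mitosis genes described here are 58 genes whose products carry a cell from the end of DNA replication through the separation of its chromosomes. They were taken by symbol from a fixed list, and all 58 were found among the 25239 genes of each of the 2 deposited count tables. The study sequenced RNA of mouse heart cardiomyocytes as 12 libraries, in 4 groups of 3. The control groups, Ctrl and Ctrl 3M, came from mice with floxed Chaf1a alleles (Chaf1a f/f) and no Cre, although their genotype label reads WT. The groups Chaf1a cko and Chaf1a cko 3M carried the same floxed alleles together with Myh6-Cre, in which the promoter of the heart muscle myosin gene Myh6 drives the recombinase. Cre and the deletion therefore go together in every comparison, and their parts cannot be told apart. The product of Chaf1a is the large subunit of chromatin assembly factor 1, a histone chaperone that acts behind the replication fork. The libraries without 3M are called the first set and those with 3M the 3M set. The sources used here do not give the meaning of 3M, the age, strain and sex of the mice, or the number of animals per library. The p-values therefore measure the spread among these libraries only, and that spread may be technical. The labels name the cells as cultured cardiomyocytes.

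Entry into mitosis is set by cyclin-dependent kinase 1 (CDK1) bound to cyclin A or cyclin B, and it ends when the anaphase-promoting complex marks cyclins and securin for destruction. In between, condensin and topoisomerase II compact the chromosomes, kinetochores attach them to spindle microtubules, and the spindle checkpoint holds the cell until every chromosome is attached. The genes are mostly silent outside late S phase, G2 and mitosis, being repressed in resting cells by the DREAM complex and activated by B-MYB and FOXM1. Heart muscle cells of the mouse pass through their last rounds of DNA synthesis around birth, often without dividing, and most adult cells are no longer cycling.

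Many promoters of this class share 2 short elements, which can be read directly. The cell cycle genes homology region (CHR), written TTTGAA or TTCGAA, is bound by the DREAM and MuvB complexes, and the CCAAT box is bound by NF-Y. RefSeq promoter windows on GRCm38.p6, running from 250 bases before to 50 bases after a transcript start, were available for 47 of the 58 genes in 51 windows. On either strand, TTTGAA or TTCGAA stood in 34 of the 51 windows (66.7%), against 19.2% of all 32851 windows of the same length. CCAAT stood in 74.5% of the members' windows, against 37.4% of all windows, and 2 or more copies in 49%, against 11.7%. Both elements stood together in 30 of the 51 windows (58.8%), against 7.52% of all windows. No match of one element overlapped a match of the other in the windows shown. A match of letters describes the window and says nothing of binding in these cells.

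The windows below belong to 6 of the genes with the smallest p in the first set that have a single window in the RefSeq table, and are shown because the comparison turns on these genes. Each runs from 250 bases before the start to 20 bases after it, 5′ to 3′ along the gene, with CHR letters (TTTGAA on either strand, or TTCGAA) and CCAAT letters (CCAAT on either strand) in capitals. All 6 genes lie on the minus strand: Mki67 at chr7:135716360-135716629, Top2a at chr11:99024170-99024439, Hmmr at chr11:40733418-40733687, Nuf2 at chr1:169531445-169531714, Cenpf at chr1:189688067-189688336 and Ncapd2 at chr6:125191567-125191836.
Mki67: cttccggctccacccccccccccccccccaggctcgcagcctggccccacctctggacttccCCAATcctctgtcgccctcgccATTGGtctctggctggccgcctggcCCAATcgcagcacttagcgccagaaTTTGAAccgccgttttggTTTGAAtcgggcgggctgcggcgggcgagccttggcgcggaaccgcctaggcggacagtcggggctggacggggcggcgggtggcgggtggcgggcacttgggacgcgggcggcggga
Top2a: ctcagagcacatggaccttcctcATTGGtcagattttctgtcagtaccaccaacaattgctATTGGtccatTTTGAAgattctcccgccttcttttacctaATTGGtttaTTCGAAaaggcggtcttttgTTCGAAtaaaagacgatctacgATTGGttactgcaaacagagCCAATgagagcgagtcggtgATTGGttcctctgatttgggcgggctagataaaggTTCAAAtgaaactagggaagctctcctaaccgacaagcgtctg
Hmmr: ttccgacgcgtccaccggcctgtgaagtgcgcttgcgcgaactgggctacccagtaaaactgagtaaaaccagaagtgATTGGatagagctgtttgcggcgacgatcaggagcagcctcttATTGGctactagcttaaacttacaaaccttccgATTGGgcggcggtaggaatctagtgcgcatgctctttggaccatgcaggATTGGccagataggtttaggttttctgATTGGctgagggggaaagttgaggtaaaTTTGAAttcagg
Nuf2: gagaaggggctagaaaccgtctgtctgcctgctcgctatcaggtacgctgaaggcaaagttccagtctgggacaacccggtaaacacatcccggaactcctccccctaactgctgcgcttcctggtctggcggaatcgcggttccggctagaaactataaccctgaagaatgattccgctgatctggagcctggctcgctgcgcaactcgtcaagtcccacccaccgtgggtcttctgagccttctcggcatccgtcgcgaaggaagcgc
Cenpf: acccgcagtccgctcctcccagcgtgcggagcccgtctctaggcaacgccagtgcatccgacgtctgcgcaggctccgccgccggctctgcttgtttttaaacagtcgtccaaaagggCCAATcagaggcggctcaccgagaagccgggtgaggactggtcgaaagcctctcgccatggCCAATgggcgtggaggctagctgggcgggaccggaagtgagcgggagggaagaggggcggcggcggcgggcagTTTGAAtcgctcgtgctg
Ncapd2: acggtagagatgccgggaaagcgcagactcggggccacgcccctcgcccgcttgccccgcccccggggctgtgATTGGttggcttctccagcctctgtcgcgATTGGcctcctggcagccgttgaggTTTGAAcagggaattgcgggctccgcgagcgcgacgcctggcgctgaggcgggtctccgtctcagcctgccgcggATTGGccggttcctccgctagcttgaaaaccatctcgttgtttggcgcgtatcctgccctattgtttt
Mki67, Ncapd2 and Cenpf each hold TTTGAA with 3, 3 and 2 CCAAT matches in the same window. Top2a holds the most, with 6 CCAAT matches, 2 of TTTGAA and 2 of TTCGAA. In Cenpf and Hmmr the only CHR letters lie just past the RefSeq start, beginning 2 and 8 bases past its first base. The GENCODE gene of Hmmr begins further along, at chr11:40733422, so there the letters lie before the start. Nuf2 has neither element in its window, although it had the largest log2 fold change among the 58 genes in the first set.

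Several properties of the libraries bear on what follows. The first set held 15068468 to 20896673 counts per library and the 3M set 10569325 to 16445963. The deleted gene did not separate the labels: Chaf1a read 24.6 ± 6.92 CPM (counts scaled to the library total after TMM adjustment; SD, n = 3) in Ctrl and 25.1 ± 3.56 in Chaf1a cko, with a log2 fold change of 0.03 (SE 0.18) and an adjusted p of 0.981 by edgeR. In the 3M set the Ctrl 3M libraries read 5.45 ± 3.98 CPM and the Chaf1a cko 3M libraries 6.48 ± 1.6 CPM, with an adjusted p of 0.952. Counts per gene cannot show whether the remaining reads lie in the floxed part, so the groups are named by their labels below. Of 1525 chemoreceptor genes, which are mostly silent in heart, between 94.9% and 97.9% were above 0 per library in the first set, but between 1.18% and 1.7% in the 3M set. Low counts of the 3M libraries piled up at multiples of 4, as the plot of low counts shows, with 3.23 to 3.57 times as many genes at 4, 5, 8, 9, 12 or 13 counts as at 2, 3, 6, 7, 10 or 11. This ratio was 0.88 to 0.96 in the first set. The sources used here do not say how many sequenced fragments 1 count of the 3M table stands for, so the counting precision of low values there is not known.

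**Figure D1:**
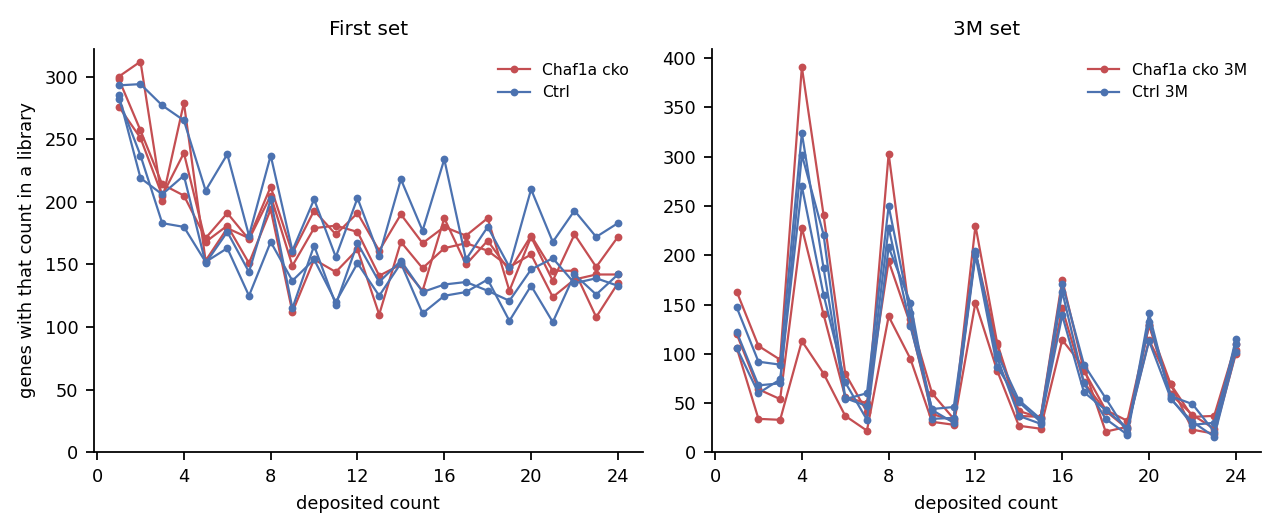
Number of genes (y axis) with each deposited count from 1 to 24 (x axis), 1 line per library, in the first set (left) and the 3M set (right), with Ctrl in blue and Chaf1a cko in red. All 6 libraries of the 3M set have local peaks at 4, 8, 12, 16 and 20. The first set has lower peaks at many even counts, and its ratio of genes at 4, 5, 8, 9, 12 or 13 counts to genes at 2, 3, 6, 7, 10 or 11 was 0.88 to 0.96, against 3.23 to 3.57.

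In the first set the G2 and mitosis genes read higher in the libraries labelled Chaf1a cko, with median log2 fold changes of 0.24 to 0.4 over the 8 roles. All 58 genes passed the filter on low counts. Of these, 10 rose at an adjusted p under 0.05 and 0 fell, against a background of 0.740% of the 22965 tested genes called higher and 0.435% called lower. The 10 were Mki67, Top2a, Hmmr, Nuf2, Cenpf, Ncapd2, Dlgap5, Kif11, Tpx2 and Smc4. The log2 fold change was above 0 for 53 of 58 genes, where 49.1% of all tested genes were above 0. The members' median was 0.33 and that of all tested genes −0.01, with a range from −0.16 to 0.75 among the members. At an unadjusted p under 0.05, 33 genes were higher and 0 lower, against 5.63% of all tested genes higher and 4.50% lower. All 3 Chaf1a cko libraries lay above all 3 Ctrl libraries for 34 of the 58 genes, against 8.33% of all tested genes, and all 3 lay below for 0, against 7.85%.

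The libraries can be set beside each other by the summed level of the 58 genes. This sum was 2821, 2839 and 2849 CPM in Ctrl against 3593, 3505 and 3590.0 CPM in Chaf1a cko. The groups did not overlap, and the spread within each was far smaller than the gap. Mki67 is the largest contributor, and without it the sums were 2212, 2228 and 2243 CPM against 2821, 2717 and 2802. Taken gene by gene, the median log2 ratio to the Ctrl mean was 0.35, 0.28 and 0.37 in the Chaf1a cko libraries, in which 54, 52 and 49 of the 58 genes lay above the Ctrl mean. In the Ctrl libraries it was −0.02, −0.01 and 0.01.

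**Figure D2:**
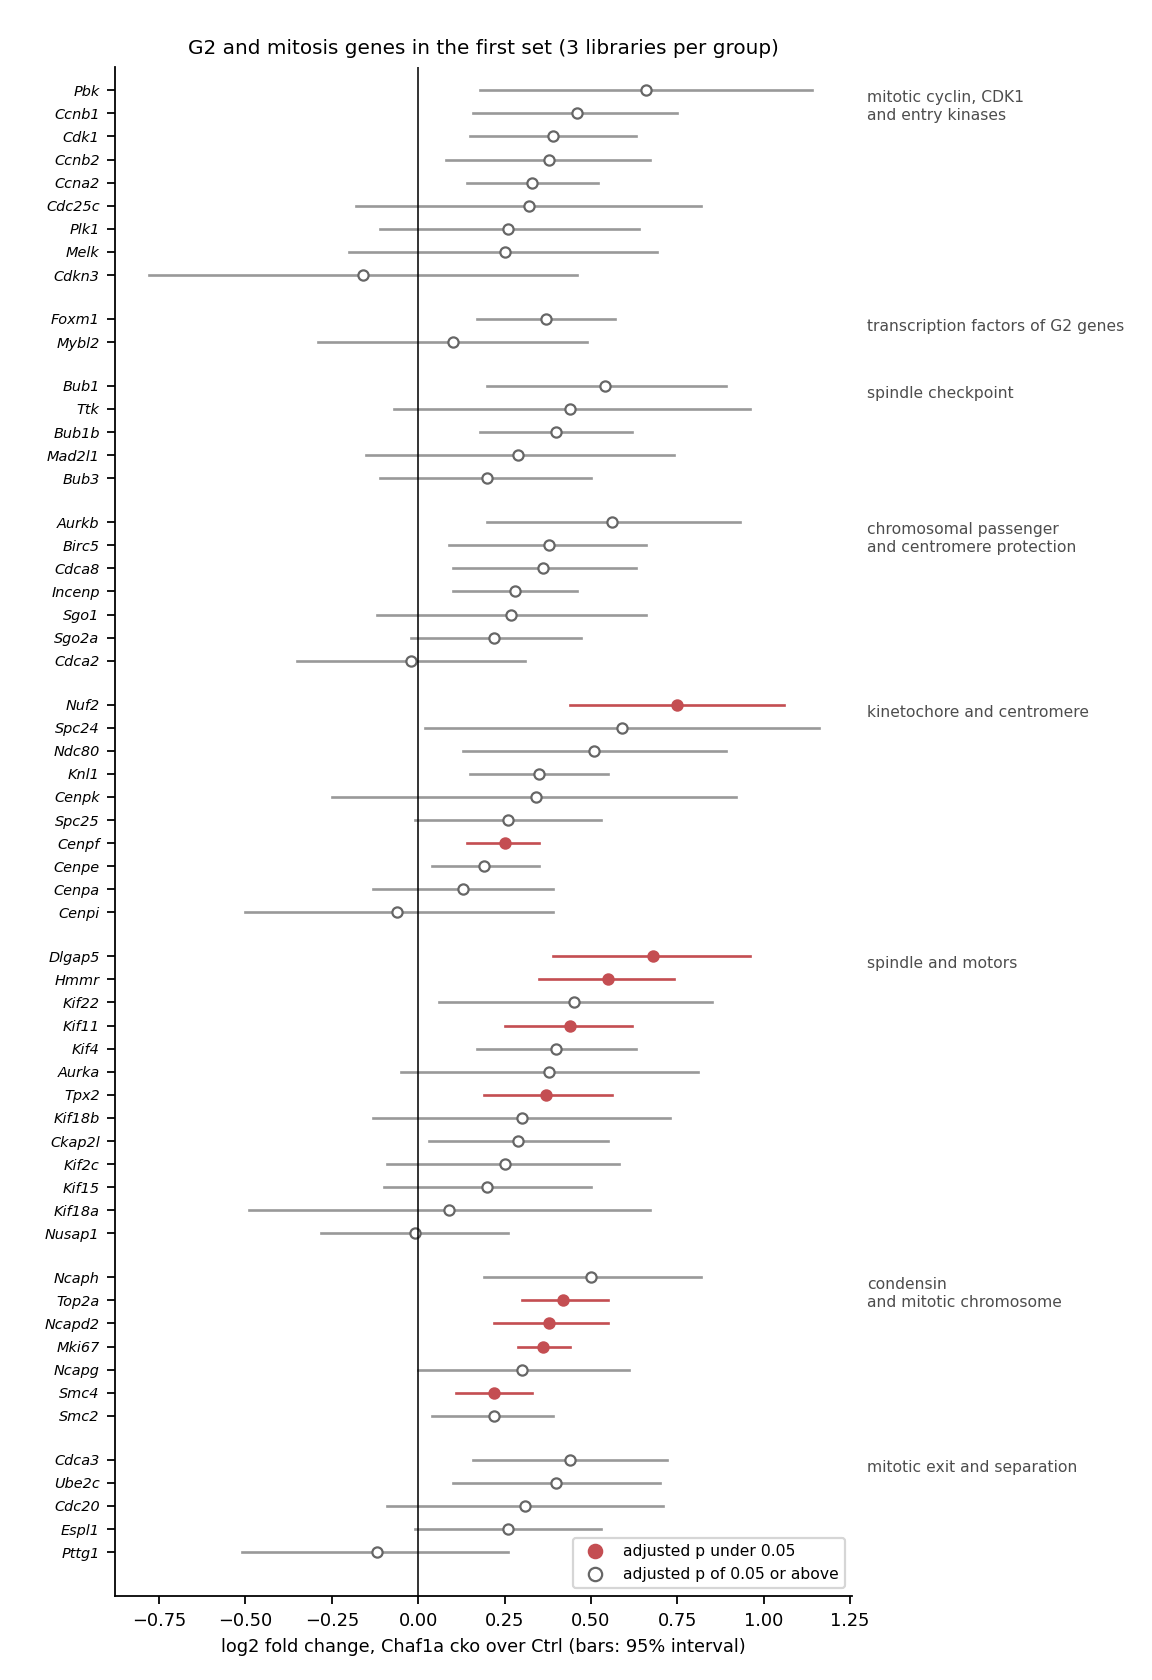
Log2 fold change of Chaf1a cko over Ctrl (x axis) with its 95% interval from the edgeR fit (bars) for each of the 58 genes of the first set (y axis), ordered by role and then by fold change, 3 libraries per group. The 10 genes with an adjusted p under 0.05 are filled red, and 53 of the 58 points lie to the right of 0.

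The share of members past the threshold was larger at higher levels, while the median log2 fold change lay between 0.3 and 0.37 at each level. Among the 16 members at 50 CPM or more, all 16 had an unadjusted p under 0.05 and 8 passed the adjusted threshold, with a median log2 fold change of 0.37 and a median SE of 0.09. Among the 26 members from 20 to 50 CPM, 2 passed, with a median of 0.34 and a median SE of 0.14. Among the 16 under 20 CPM, 0 passed by edgeR, 3 had an unadjusted p under 0.05 and 13 were above 0, with a median of 0.3 and a median SE of 0.21. The lowest group had the largest median SE, and the size of change that the adjusted test could find there was not computed. The share of all tested genes called at each level was not computed either, so these counts have no background of like level.

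The cyclins and kinases that start mitosis made up 9 genes, of which 0 passed the adjusted threshold by edgeR, 8 were above 0, 5 had an unadjusted p under 0.05 and 5 were separate between the groups. Ccnb2, which encodes cyclin B2, had the highest level per kb of transcript in this role and read 26.7, 29.6 and 23.9 CPM in Ctrl against 33.1, 31.3 and 39.5 CPM in Chaf1a cko. Its groups did not overlap, but the log2 fold change of 0.38 (SE 0.14) had an adjusted p of 0.319. Its partner kinase gene Cdk1 read 37.2, 37.8 and 31.5 CPM in Ctrl against 47.2, 48.1 and 44.1 CPM in Chaf1a cko, again without overlap (log2 fold change 0.39, SE 0.12, adjusted p 0.156). Ccna2, for cyclin A2, had 0.33 (SE 0.09, adjusted p 0.115) and Ccnb1, for cyclin B1, 0.46 (SE 0.14, adjusted p 0.176). The largest value of the role belonged to Pbk, a mitotic kinase gene, at 0.66 (SE 0.23, adjusted p 0.269), on a mean of 6.63 CPM in Ctrl against 10.4 CPM in Chaf1a cko. Plk1, the polo-like kinase gene, had 0.26, Melk 0.25 and Cdc25c, the phosphatase gene that activates CDK1, 0.32, each with overlapping groups. Cdkn3, a phosphatase gene acting on CDKs, was the lowest of all 58 genes at −0.16 (SE 0.3), on a mean of 5.99 CPM in Ctrl against 5.35 CPM in Chaf1a cko.

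Foxm1 and Mybl2 encode FOXM1 and B-MYB, the activators of the programme. Foxm1 read 52.2, 49.4 and 50.1 CPM in Ctrl against 66.7, 60.0 and 69.3 CPM in Chaf1a cko. All 3 Chaf1a cko libraries lay above Ctrl, and the log2 fold change of 0.37 (SE 0.1) had an adjusted p of 0.0838. Mybl2 had a log2 fold change of 0.1 (SE 0.19) with overlapping groups.

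The spindle checkpoint was represented by 5 genes, of which 0 passed by edgeR, 5 were above 0, 2 had an unadjusted p under 0.05 and 3 were separate, with a median of 0.4. Bub1b, for the checkpoint protein BUBR1, read 50.2, 53.4 and 41.9 CPM in Ctrl against 61.2, 66.2 and 64.7 CPM in Chaf1a cko. The lowest Chaf1a cko library stood above the highest Ctrl library, at a log2 fold change of 0.4 (SE 0.11) and an adjusted p of 0.0889. Bub1, its kinase relative, read 21.8, 21.1 and 15 CPM against 29.5, 28.4 and 26.6 CPM, also separate, at 0.54 (SE 0.16, adjusted p 0.156). Ttk, for the kinase MPS1, had 0.44, Mad2l1 had 0.29 and Bub3 had 0.2, with adjusted p from 0.588 to 0.745.

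Chromosomal passenger genes and the shugoshins, which correct attachments and protect centromere cohesion, numbered 7, of which 0 passed by edgeR, 6 were above 0 and 4 were separate, with a median of 0.28. Incenp, the scaffold of the passenger complex, read 70.8, 74 and 82.0 CPM in Ctrl against 99.8, 88.9 and 86.9 CPM in Chaf1a cko. The groups were separate, at 0.28 (SE 0.09) with an adjusted p of 0.182. The other 3 subunits lay in the same direction with no overlap: Aurkb, the kinase, at 0.56 (SE 0.17), Birc5, or survivin, at 0.38 (SE 0.14) and Cdca8, or borealin, at 0.36 (SE 0.12), with adjusted p of 0.182, 0.293 and 0.259. Sgo1 had 0.27 and Sgo2a 0.22 with overlap between groups, and Cdca2, a phosphatase-targeting subunit, had −0.02.

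Among 10 kinetochore and centromere genes 2 rose, 9 were above 0, 6 had an unadjusted p under 0.05 and 5 were separate, with a median of 0.3. Nuf2 encodes a subunit of the NDC80 complex, the part of the kinetochore that grips microtubules. It read 17.5, 16.2 and 16.0 CPM in Ctrl against 27.8, 29.1 and 26.9 CPM in Chaf1a cko. The gap was far wider than the spread in either group, and the gene rose by a log2 fold change of 0.75 (SE 0.15, adjusted p 0.0125). The other 3 subunit genes of the complex had positive values that did not pass: Spc24 0.59 (SE 0.27), Ndc80 0.51 (SE 0.18) and Spc25 0.26 (SE 0.13), of which only Spc25 was separate between groups. Cenpf, for a large protein of the outer kinetochore, read 254, 253 and 259.7 CPM in Ctrl against 301, 299 and 310.3 CPM in Chaf1a cko. Replicates were tight in both groups, and the rise of 0.25 (SE 0.05) had an adjusted p of 0.0141. Cenpe, for a kinetochore motor, had 0.19 (SE 0.07, adjusted p 0.344) and Knl1, a scaffold, 0.35 (SE 0.1, adjusted p 0.117). The inner centromere genes showed smaller values or wider error, with Cenpa, the centromeric histone H3 variant, at 0.13 (SE 0.12), Cenpi at −0.06 (SE 0.21) and Cenpk at 0.34 (SE 0.28).

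Spindle and motor genes numbered 13, of which 4 rose, 12 were above 0, 7 had an unadjusted p under 0.05 and 6 were separate, with a median of 0.37. Hmmr, for a spindle assembly factor also known as RHAMM, read 45.6, 52.5 and 49.9 CPM in Ctrl against 70.9, 73.2 and 72.6 CPM in Chaf1a cko. It rose by 0.55 (SE 0.09, adjusted p 0.00366), and the Chaf1a cko libraries were nearly alike. Dlgap5, for the kinetochore fibre protein HURP, read 23.5, 22.4 and 24.9 CPM in Ctrl against 42.0, 32.3 and 38.9 CPM in Chaf1a cko. It rose by 0.68 (SE 0.14, adjusted p 0.0173), with more spread in Chaf1a cko than in Ctrl. Kif11, for the motor Eg5 that pushes spindle poles apart, read 71.0, 71.4 and 73.7 CPM against 96, 86.6 and 109.8 CPM. It rose by 0.44 (SE 0.09, adjusted p 0.0199), again with the wider spread in Chaf1a cko. Tpx2, for the activator of Aurora A at the spindle, read 70.2, 68.5 and 74.9 CPM against 99.0, 82.1 and 95.4 CPM. Its rise of 0.37 (SE 0.09) had an adjusted p of 0.0469. Aurka itself had 0.38 (SE 0.21, adjusted p 0.575), with 1 Chaf1a cko library at 12.1 CPM inside the Ctrl range of 11.9 to 13.8 CPM. Kif4, a chromosome-bound motor, had 0.4 (SE 0.11, adjusted p 0.111) with separate groups. The rest (Kif2c, Kif15, Kif18a, Kif18b, Kif22, Nusap1 and Ckap2l) ran from −0.01 for Nusap1 to 0.45 for Kif22, with adjusted p from 0.415 to 0.992.

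**Figure D3:**
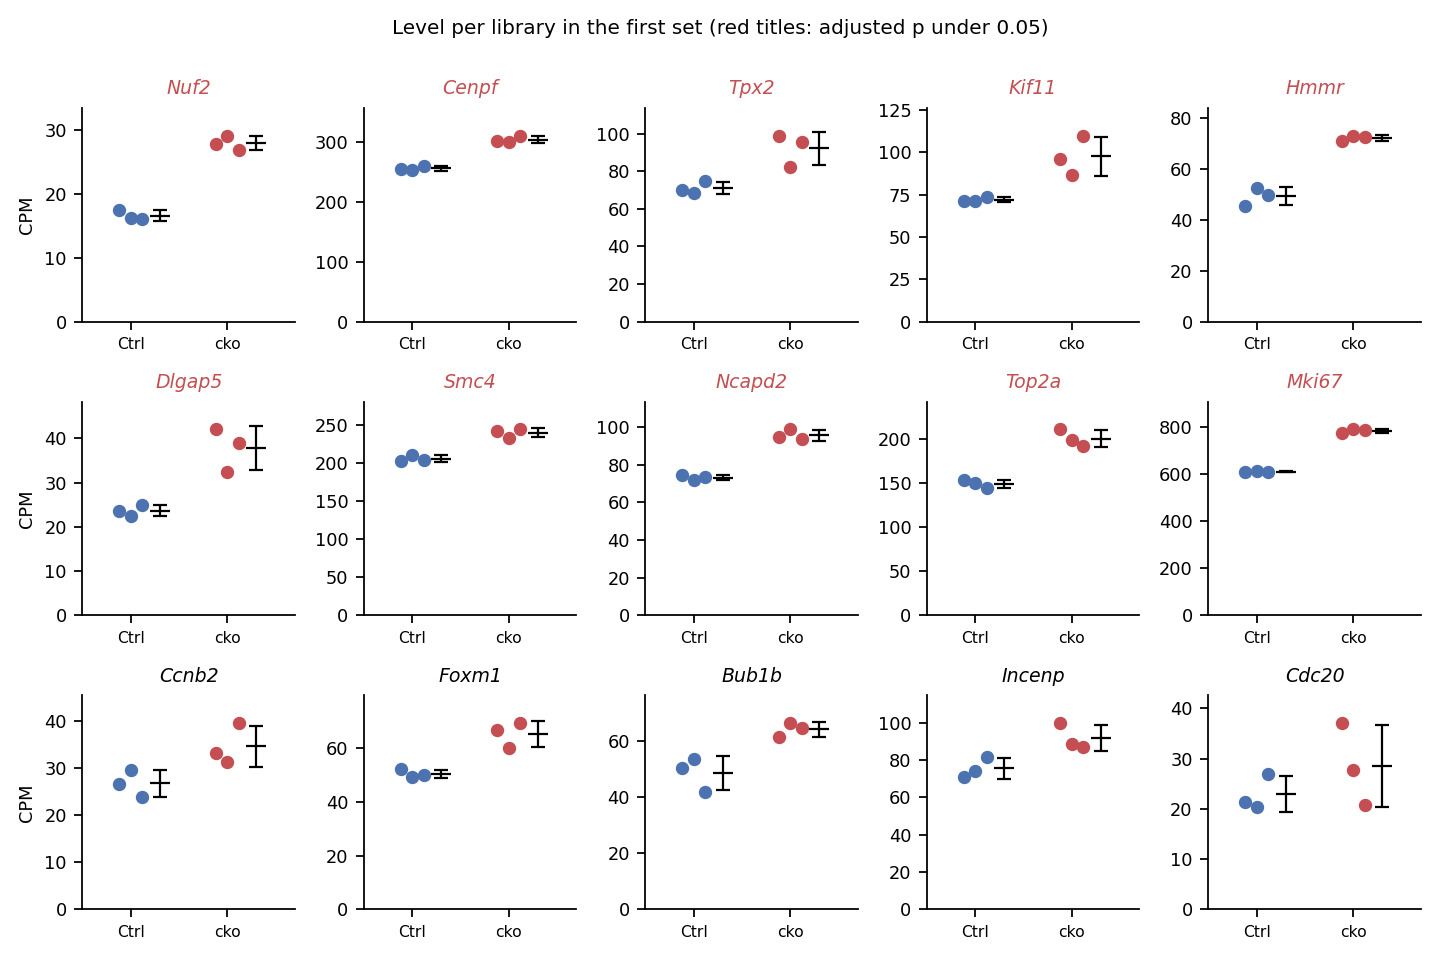
Level in CPM (y axis, from 0) of 15 G2 and mitosis genes in each library of the first set, with Ctrl in blue, Chaf1a cko in red and black bars for the mean ± SD of 3 libraries. The 10 genes with red titles passed the adjusted threshold with no overlap between groups, and among the other 5 only Cdc20 shows overlap.

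Condensin and mitotic chromosome genes were the role with the largest share past the threshold. Of 7 genes 4 rose, 7 were above 0, 6 had an unadjusted p under 0.05 and 7 were separate, with a median of 0.36 and the smallest median SE of the 8 roles, 0.08. Mki67, for Ki-67, the protein that coats mitotic chromosomes and is the usual stain for cycling cells, read 609, 611 and 607 CPM in Ctrl against 773, 789 and 788 CPM in Chaf1a cko. It had the highest level per kb of the 58 genes in Ctrl (60.5 CPM per kb) and the smallest p, rising by 0.36 (SE 0.04, adjusted p 1.37e-05), or 1.29-fold. Top2a, for topoisomerase II alpha, which untangles sister DNA, read 153, 150.0 and 144 CPM in Ctrl against 210.3, 198 and 192 CPM in Chaf1a cko. It rose by 0.42 (SE 0.06, adjusted p 0.000653), or 1.34-fold, with no overlap. Ncapd2, a subunit of condensin I, read 74.8, 71.7 and 73.3 CPM against 94.6, 98.8 and 93.5 CPM. It rose by 0.38 (SE 0.08, adjusted p 0.0158), with similar spread in both groups. Smc4, a core ATPase of both condensins, read 202, 211 and 204 CPM against 242, 233 and 244 CPM. Its rise of 0.22 (SE 0.05) had an adjusted p of 0.0498, just inside the threshold. Its partner Smc2 had 0.22 (SE 0.08, adjusted p 0.347), and the condensin I subunits Ncaph and Ncapg had 0.5 (SE 0.15, adjusted p 0.159) and 0.3 (SE 0.14, adjusted p 0.493).

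Of the 5 genes of mitotic exit and separation, 0 passed by edgeR, 4 were above 0, 2 had an unadjusted p under 0.05 and 3 were separate, with a median of 0.31. Cdc20, the activator of the anaphase-promoting complex, read 21.3, 20.4 and 27.0 CPM in Ctrl against 37.0, 27.7 and 20.8 CPM in Chaf1a cko. The third Chaf1a cko library fell within the Ctrl range, and the log2 fold change of 0.31 (SE 0.19) had an adjusted p of 0.642. Ube2c, the ubiquitin-conjugating enzyme of that complex, had 0.4 (SE 0.14, adjusted p 0.294) and Cdca3, which encodes a trigger of mitotic entry, 0.44 (SE 0.13, adjusted p 0.167), both separate. The protease separase and its inhibitor securin had values on opposite sides of 0, with Espl1 at 0.26 (SE 0.13) and Pttg1 at −0.12 (SE 0.18). Pttg1 was the only member below 0 under each of 13 settings compared in the first set.

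The calls depended on the setting more than the directions did. Mki67, Top2a and Hmmr passed the adjusted threshold under all 13, and 52 of the 58 genes were above 0 under all 13. Leaving out any 1 of the 6 libraries left 3 to 6 members past the threshold (3 without Ctrl replicate 2, Chaf1a cko replicate 1 or Chaf1a cko replicate 3), while the members' median stayed between 0.32 and 0.36. With a library left out, 0.319% to 0.635% of all tested genes were called higher. Cenpf and Dlgap5 passed in 9 of the 13, Nuf2, Ncapd2 and Kif11 in 8, Tpx2 in 5 and Smc4 in 3. The Wald test of DESeq2 called 21 members higher and 0 lower, against 320 of 25010 genes higher (1.28%) and 170 lower.

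Members with both promoter elements can be set beside the rest. Of 29 genes with CHR and CCAAT letters in 1 window, 28 were above 0 and 6 were called, with a median log2 fold change of 0.36. Of the 18 with 1 element or neither, 15 were above 0 and 1 was called, with a median of 0.25. The ranges overlapped widely, from −0.16 to 0.55 and from −0.12 to 0.75, and the difference was not tested.

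Genes of the same phase that are not members had a smaller median in the first set. Of 74 other G2 and mitosis genes, 2 rose and 0 fell, 66 were above 0 and the median log2 fold change was 0.2. Those that rose were Hmgb2, for a chromatin protein abundant in dividing cells, at 0.3 (SE 0.05, adjusted p 0.00399), and Nek2, a centrosome kinase gene, at 0.53 (SE 0.11, adjusted p 0.0235). Ncapg2, a condensin II subunit, had 0.44 with an adjusted p of 0.0528. Of 40 genes for DNA replication, 0 passed by edgeR, 13 had an unadjusted p under 0.05 and 32 were above 0, with a median of 0.22. Pcna, the sliding clamp of replication, had 0.4 (SE 0.11, adjusted p 0.0952) and Uhrf1, which maintains DNA methylation behind the fork, 0.42 (SE 0.12, adjusted p 0.117). The difference between these lists and the members was not tested.

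Markers of other cells and of sex also differed between the groups of the first set. The summed level of 10 cardiomyocyte markers was 65951 to 67792 CPM in Ctrl against 62354 to 62875 CPM in Chaf1a cko, with 2 of 10 higher and 4 lower. The 8 fibroblast markers summed to 3083 to 3166 CPM in Ctrl against 2501 to 2517 CPM in Chaf1a cko, with 5 of 8 lower. Another 1 of the 8 went the other way, at a log2 fold change of 0.63 with separate groups. It had an unadjusted p under 0.05 by edgeR and did not pass the adjusted threshold. The 8 endothelial markers summed to 2602 to 2805 and 2707 to 2771 CPM, and the 6 mural markers to 597 to 636 and 617 to 647 CPM, with 0 and 1 past the threshold. The 10 macrophage markers summed to 90.0 to 101 and 79.9 to 93.2 CPM, with 0 past it. The 6 erythroid markers summed to 1638 to 2208 CPM in Ctrl, and their sum was higher in every Chaf1a cko library, at 2279.7 to 2304 CPM. Their median log2 fold change was 0.52, with 0 of 6 past the threshold by edgeR (2 higher at an unadjusted p under 0.05). Of the 6, 5 were above 0 and 1 went the other way, at −3.3, with its Chaf1a cko libraries all below Ctrl. The summed levels of the lymphocyte, epicardial and Schwann cell markers overlapped between the groups, with 0 markers past the threshold. Of the 7 lymphocyte markers taken singly, 1 was separate and higher in Chaf1a cko and 1 separate and lower. The 4 Y-linked genes summed to at most 61.1 CPM in each Ctrl library and at least 115 CPM in each Chaf1a cko library, with 4 of 4 higher. Xist read 290.5 to 620.2 CPM in Ctrl and 269.6 to 323 CPM in Chaf1a cko, with overlap. Its log2 fold change of −0.79 lay the other way and did not pass the adjusted threshold by edgeR. The part of cell mixture and sex in the members' values was not tested. In bulk RNA, more cells of a cycling type and more of these transcripts per cell cannot be told apart.

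The members stood above the background of chemoreceptor genes in most cases. That background had a median of 0.524 to 0.576 CPM per kb in Ctrl and 0.491 to 0.505 in Chaf1a cko, while the members' median level was 5.29 to 5.74 and 6.80 to 7.02 CPM per kb. Between 45 and 51 members per library exceeded the 95th percentile of the background. With the background subtracted the members' median log2 fold change was 0.39 in place of 0.33.

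**Figure D4:**
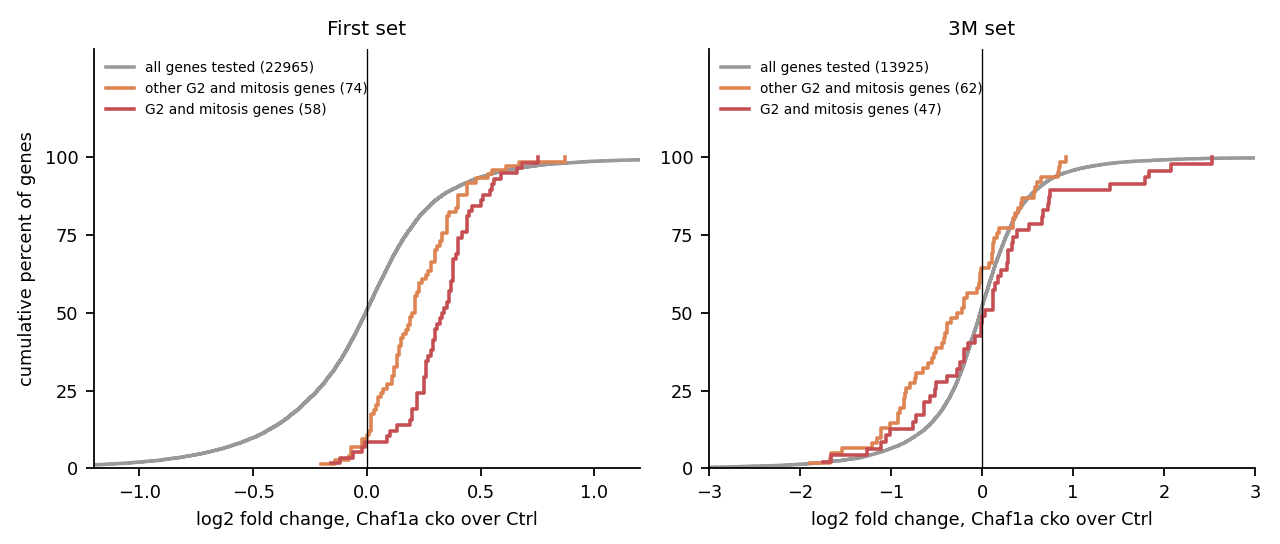
Cumulative percent of genes (y axis) by log2 fold change of Chaf1a cko over Ctrl (x axis) in the first set (left) and the 3M set (right), for all tested genes (grey), other G2 and mitosis genes (orange) and the G2 and mitosis genes described here (red). The red curve lies to the right of the grey one in the first set, at a median of 0.33 against −0.01, and runs close to it in the 3M set, at 0.03 against −0.02.

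In the 3M set none of the same genes passed the test, and most were low, with a median member level of 1.5 to 2.39 CPM per library. Of the 58 genes, 47 passed the filter on low counts. Ccnb1, Cdc25c, Ttk, Kif2c, Kif18b, Cenpk, Hmmr, Ncapg, Cdkn3, Melk and Sgo1 did not, with at most 26 counts in any library. Of the 47, 0 were called in either direction by edgeR, against a background of 0.0144% of 13925 genes (0.00718% higher and 0.00718% lower), and 0 were called by DESeq2. At an unadjusted p under 0.05, 1 was higher and 0 were lower, against 3.20% and 3.73% of all tested genes. The log2 fold change was above 0 for 25, against 48.0% of all tested genes, and below 0 for 22, with a median of 0.03, a range from −1.75 to 2.53 and a median SE of 0.91, against 0.14 in the first set. All 3 Chaf1a cko 3M libraries lay above Ctrl 3M for 3 members, against 7.21% of all tested genes, and below for 0, against 6.89%.

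The summed level of the 58 genes was 441, 363 and 416 CPM in Ctrl 3M, against 445, 416 and 353 CPM in Chaf1a cko 3M. The groups overlapped. The number of members at 0 counts was 15, 10 and 9 in Ctrl 3M, against 6, 5 and 17 in Chaf1a cko 3M, and the third Chaf1a cko 3M library had the most. The 6 members with the largest counts were Smc4, Bub3, Pttg1, Ncapd2, Cenpa and Smc2. Smc4 read 171, 63.7 and 68.2 CPM in Ctrl 3M and 72.3, 64.6 and 57.4 CPM in Chaf1a cko 3M, at −0.64 (SE 0.38, adjusted p 0.776). The first Ctrl 3M library stood far above the other 5, and without it the value was −0.03. Bub3 had 0.03 (SE 0.22), Cenpa 0.12 (SE 0.23) and Pttg1 0.18 (SE 0.23), each with overlap.

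**Figure D5:**
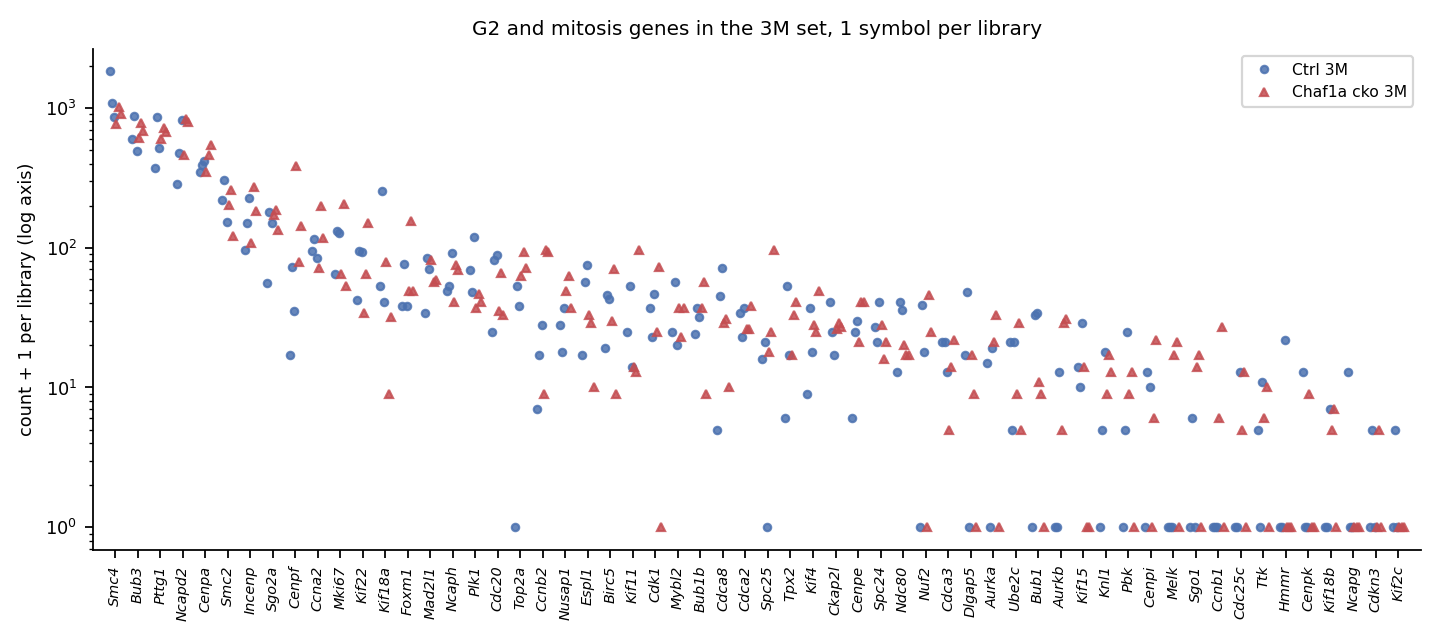
Deposited count plus 1 on a log axis (y axis) of each of the 58 genes (x axis, in order of mean count) in each library of the 3M set, with Ctrl 3M as blue circles and Chaf1a cko 3M as red triangles, so that a count of 0 sits at 1. The colours mix along the whole order, and 9 to 15 members in Ctrl 3M libraries and 5 to 17 in Chaf1a cko 3M libraries lie at 0.

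The genes that rose in the first set were scattered in the 3M set. Mki67 read 6.0, 7.69 and 10.1 CPM in Ctrl 3M and 5.99, 13.1 and 3.31 CPM in Chaf1a cko 3M, and its log2 fold change was −0.08 (SE 0.54). Top2a read 0, 3.08 and 2.95 CPM against 5.81, 5.90 and 4.52 CPM. Its groups were separate, at 1.41 (SE 1.09, adjusted p 0.822). Cenpf read 1.5, 4.26 and 2.71 CPM against 35.7, 5.0 and 9.03 CPM, with the first Chaf1a cko 3M library far above the rest. Its log2 fold change of 2.53 (SE 0.79) had an unadjusted p of 0.0132 and an adjusted p of 0.620, and was 1.30 without that library. Hmmr had 21 counts in 1 Ctrl 3M library and 0 in the other 5. Spc25 was the remaining gene with separate groups, at 1.41, 1.18 and 0 CPM in Ctrl 3M against 1.59, 1.54 and 6.11 CPM in Chaf1a cko 3M. Only the scaled values are separate, as its counts of 15, 20 and 0 and of 17, 24 and 96 overlap.

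For the others, values lay on both sides of 0 with wide errors. Ncapd2 had 0.29 (SE 0.35), Kif11 0.34 (SE 1.0), Tpx2 0.33 (SE 1.01), Nuf2 0.29 (SE 1.69) and Dlgap5 −1.11 (SE 1.82). Among the genes named for their level, Ccnb2 had 1.79 (SE 0.98), Foxm1 0.67 (SE 0.59), Bub1b 0.14 (SE 0.91), Incenp 0.12 (SE 0.4) and Cdc20 −0.57 (SE 0.64). Melk had 16 and 20 counts in 2 Chaf1a cko 3M libraries and 0 in the other 4 libraries, and Ccnb1 had 5 and 26 counts in the same 2 and 0 in the other 4. Ncapg, Kif2c and Cdkn3 had at most 12 counts in any library. The other lists gave 0 calls by edgeR among 62 other G2 and mitosis genes tested (median −0.25, 2 lower at an unadjusted p under 0.05) and 0 among 39 S phase genes (median −0.07, 0 at an unadjusted p under 0.05). The 10 macrophage markers summed to 444 to 560.3 CPM in Ctrl 3M and 282 to 347 CPM in Chaf1a cko 3M, and the 10 cardiomyocyte markers to 31554 to 43788 and 46116 to 50161 CPM. The 5 epicardial markers summed to 53.9 to 119.9 CPM in Ctrl 3M and 14.7 to 26.2 CPM in Chaf1a cko 3M, with Msln and Upk3b at 0 in all 6 libraries. The 6 erythroid markers summed to 446 to 1034 and 446 to 4007 CPM. The 4 Y-linked genes summed to 393 to 646 CPM in Ctrl 3M and 355 to 394 CPM in Chaf1a cko 3M. Xist read at most 0.296 CPM in Ctrl 3M and 3.97 CPM in Chaf1a cko 3M, far below its level in the first set. None of the macrophage, cardiomyocyte, epicardial or erythroid markers tested passed the adjusted threshold by edgeR, and 5, 3, 1 and 1 of them had an unadjusted p under 0.05. Their part in the members' values was not tested.

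Whether the effect differed between the sets was tested as the interaction of set and genotype over 12 libraries. Of 58 members 0 passed the adjusted threshold by edgeR, against 0.0658% of 22803 genes, and 8 had an unadjusted p under 0.05, against 9.47%. The members' median difference, 3M minus first, was −0.14, and that of all genes was 0.04, with a median SE of 0.68 over members that had counts in every group. Of these 8, Cenpf had a difference of 2.29 (95% interval 0.5 to 4.09, adjusted p 0.456), Plk1 −1.29 (−2.44 to −0.14) and Ndc80 −1.22 (−2.31 to −0.13). The other 5 (Ccnb1, Melk, Kif2c, Hmmr and Ncapg) had a group at 0 in every library, and no size is given for them. For Mki67, the best measured member of the first set, the difference was −0.41 (95% interval −1.54 to 0.72), a range that holds both no effect in the 3M set and an effect as large as in the first. The joint fit took a shared measure of replicate spread for both sets, although replicates differed more in the 3M set. For Ndc80 the SE of the difference was 0.5, below the SE of 0.96 in the 3M set fitted alone. The intervals of the interaction may therefore be too narrow and its p-values too small.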

How the data were processed

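The authors deposited raw gene counts, whole and not normalized, in 2 tables of 6 libraries. FastQC, Trimmomatic, HISAT2 and mm10 are named in the submitters' processing notes. The sources used here name no counting program, annotation or strand setting, so reads of overlapping antisense genes cannot be told apart. Per the labels' protocols, the stranded libraries were made after ribosomal RNA depletion.

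Each table had a fit of its own (edgeR 4.0.16 in R 4.3.3) over all genes kept by filterByExpr (minimum count 10, minimum total 15), with TMM scaling, robust glmQLFit and the two-sided quasi-likelihood test, Benjamini-Hochberg adjustment over all genes tested and a threshold of 0.05. A gene is called, or said to have risen or fallen, when it passed that threshold. CPM values were scaled by TMM, and levels per kb used GENCODE M21 exon lengths, found for 24719 of 25239 symbols (97.9%) and all 58 members. The difference between the sets was tested as a set-by-genotype term over 12 libraries. The fit was tested on simulated data, and the outcome is not reported here. Other settings tried were scaling by library size alone or by DESeq2 size factors, no filter, the Wald test of DESeq2 1.42.0, a replicate block, leaving out each library, background subtraction and, added after the low counts were seen, counts divided by 4.

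The members, gene lists and tests were chosen with earlier results of these data known. Values per library are given for every called member and, in roles with fewer than 2 of these, for the member with the highest level per kb. Cdk1, Bub1 and the 3M values of Spc25, Melk and Ccnb1 were added after their values were seen. Standard errors cover counting and the differences among replicate libraries. Promoter windows are those of RefSeq on GRCm38.p6. They were not found in that table for Pbk, Dlgap5, Cdc25c, Tpx2, Cdca2, Incenp, Aurkb, Ccna2, Smc4, Spc24 and Foxm1.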

Additional observations from a re-analysis of the deposited data

How the results depend on the processing

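Of the 10 members called higher in the first set, 9 were called with DESeq2 size factors, 8 with library size alone, 8 with no filter and 10 with counts divided by 4, while the Wald test of DESeq2 called 21. Leaving out each library in turn gave 3 to 6. Over all genes, 270 were called, 490 by DESeq2, 312 with counts divided by 4, and 128 to 201 with a library left out. The members' median log2 fold change of 0.33 was 0.31 with library size alone, 0.39 with the background subtracted and 0.32 to 0.36 with a library left out. In the 3M set 0 members were called under every setting run, and the median of 0.03 ran from −0.09 to 0.20 with a library left out. The interaction also gave 0 members under each setting run, including each library left out.

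The replicate numbers of the titles gave no clear pairing of the libraries. The deviations of same-numbered libraries correlated at −0.04, 0.033 and 0.053 (first set) and at 0.03, 0.047 and 0.023 (3M set). In the first set not every library correlated best with its own number. In the 3M set every library did, but no correlation there was above 0.047. With the replicate block 8 members of the first set were called, among 192 genes in place of 270, and 0 members of the 3M set. Under the block Kif11 had −0.23 and Bub1b −0.19 in the 3M set, where both were above 0 without it.

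Signs in the 3M set were compared for the called members and those named for their level, where tested. Cdk1, Bub1 and Spc25, added later, are not covered. Among the members compared, the other signs that turned did so with 1 library left out, and none of these values passed the test. Over these leave-outs Nuf2 ran from −0.64 to 1.10, Tpx2 from −0.10 to 1.21, Kif11 from −1.09 to 0.77, Mki67 from −0.77 to 0.27, Bub1b from −0.23 to 0.63 and Incenp from −0.14 to 0.54. The cause was not tested. Low counts limit the 3M set, where the filter left out 11 of 58 members. With no filter all 58 were tested and 0 were called by edgeR, and DESeq2 also called 0.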
